A study of Sorghum bicolor with 4 samples.

Results

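Chromosome 6 of sorghum held 3041 of the 40087 peaks in a list of genomic regions enriched with the flowering repressor SbGhd7. All peaks listed for this chromosome were taken, whatever their strength, so no measured value decided which of its peaks were taken. The chromosome itself was chosen with earlier results of these data known. Another 32500 peaks lay on the 9 other chromosomes and 4546 on unplaced scaffolds. The list came from chromatin immunoprecipitation with sequencing (ChIP-seq), in which fixed chromatin is sheared, pulled down with an antibody and sequenced. The study has 4 samples, 2 immunoprecipitates made with a Myc antibody (IP) and 2 input samples, which had no antibody. All 4 came from mesophyll protoplasts, leaf cells without walls, that had been freshly isolated and transiently expressed SbGhd7 overnight at 24 °C. Cells were fixed for 8 minutes in 1% formaldehyde, and libraries were amplified over 18 cycles from 50 to 100 pg of DNA. The labels mention no IP from cells lacking SbGhd7, name no tag on the protein and give no sorghum line, and SbGhd7 was introduced rather than measured at its own level.

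SbGhd7 is a transcription factor with a CCT domain and the sorghum counterpart of rice Ghd7, which delays flowering in long days. In sorghum it is known to repress activators of flowering, and its gene is the maturity locus Ma6, mapped near the low-coordinate end of chromosome 6. The maturity locus Ma1, which encodes SbPRR37, another CCT-domain repressor of flowering, lies on the same chromosome. Sorghum chromosomes are known to carry most genes toward their ends and repeat-rich heterochromatin in the middle. The arm at the low-coordinate end of chromosome 6 is known from cytogenetic work as short and largely heterochromatic. The genome build of the list is not given in the sources used here, so no gene, flowering locus or sequence was assigned to any peak. Start, end and summit are given 1-based in the coordinates of the deposited list.

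Each peak has a fold, which is the authors' ratio of IP signal to local background at its summit, and the −log10 of its p-value and q-value, also the authors' own. From the fold and the p-value, 2 further values were recovered for each peak, the pileup (IP fragments covering the summit) and the background (fragments expected there from the control). No column belongs to a sample, so no replicate error exists, and total reads per library are unknown. Peaks and chromosomes are not replicates of a condition, so the comparisons below are descriptions without a test. Intervals are exact at 95%, Poisson for counts and Clopper-Pearson for shares, cover counting error only, and are too narrow where peaks cluster. For a count of 0, the share it allows is given as 3 counts of the total, which is lower than the exact Clopper-Pearson limit.

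The typical peak of chromosome 6 was weak and shared its size with those elsewhere. The median fold was 3.69, with quartiles of 3.25 and 4.22, and the medians of the 9 other chromosomes ranged from 3.71 to 3.77. The median pileup was 12 fragments on chromosome 6 and on each of the other 9. Counting error on 12 fragments runs from 6.20 to 20.96. At the chromosome's median background of 2.41 fragments this is a fold of 3.81 (2.11 to 6.44), a range that takes in both quartiles. Of the members, 2778 (91.4%) had a pileup of 20 or less, and 12 had a q over 0.05. The median width was 218 bp, against 218 to 229 bp on the other 9, and the members together covered 833.4 kb, or 1.36% of the chromosome against 1.46% of the others.

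The shares of strong and of wide peaks on chromosome 6 lay near those over all 10 chromosomes, while peaks with a high background were more frequent. Folds of at least 5 occurred in 222 members (7.30%, interval 6.40 to 8.28), against 8.47% of all chromosome peaks. This was the smallest share of the 10 chromosomes, although the next was 7.38%. The 3 members just under the threshold each had a fold of 4.998, and the 3 just above it had 5.01 to 5.02. Values of −log10 q of at least 5 occurred in 605 members (19.9%, 18.5 to 21.4), against 18.3%. A width of 900 bp or more was found in 32 members (1.05%, 0.721 to 1.48), against 1.28%. The background was 5 fragments or more at 231 members (7.60%, 6.68 to 8.60), against 3.77% of all chromosome peaks. Only 1 other chromosome had a larger share, of 8.40%, and 218 of the 231 members lay in a single block described below.

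Along the chromosome, peaks were spread over the whole length, with a block of high density, lower counts on both sides of it and a sparse high-coordinate end. Density over the 61.3 Mb up to the last peak was 49.6 peaks per Mb (47.9 to 51.4), against 52.3 per Mb on the other 9 together. Taken singly, those 9 ranged from 41.6 to 58.8 per Mb, and chromosome 6 ranked 7 from the highest. The ratio to the other 9 together, 0.9499, was 1.04 (0.953 to 1.13) when the −log10 q had to be at least 5. It was 1.06 (0.989 to 1.13) when each 10 kb cluster counted as 1 peak, and both of these intervals include 1. The 61 complete 1 Mb windows held a median of 46 peaks, with quartiles of 30 and 59. In the 21 windows before 21 Mb the median was 50 peaks (18 to 76), and in the 21 windows from 26 to 47 Mb it was 51 (21 to 71). From 47 to 61 Mb the 14 windows had a median of 21.5 (3 to 33), with limits chosen after the counts were seen. That last stretch and the remaining 0.267 Mb held 304 peaks.

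**Figure D1:**
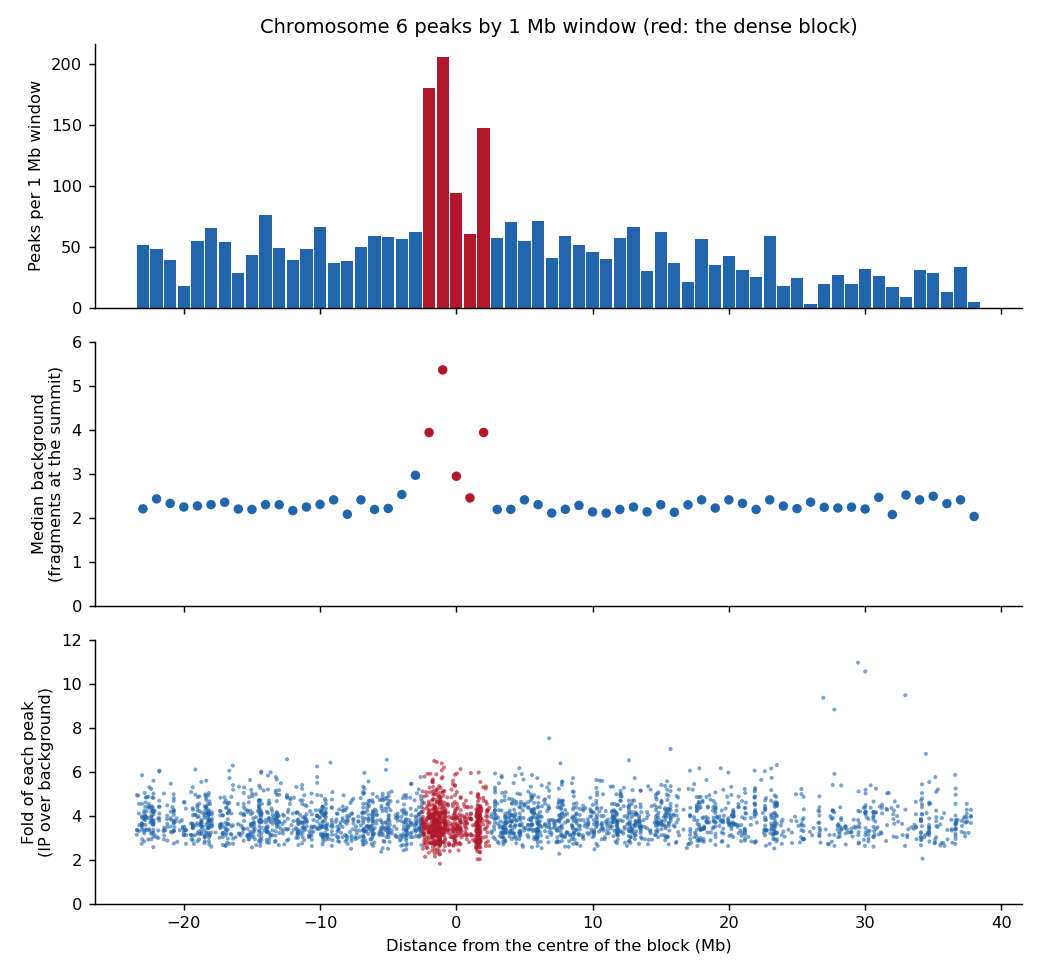
Peaks per 1 Mb window, median background per window and fold of each peak along chromosome 6, against the distance in Mb from the centre of the dense block (red; other windows blue). The windows with the highest counts (206 and 180) and the highest median backgrounds lie in the block, while the 5 folds of 8 or more lie toward the right end.

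The sparsest windows were 49 to 50 Mb with 3 peaks, 56 to 57 Mb with 9, 59 to 60 Mb with 13, 55 to 56 Mb with 17 and 3 to 4 Mb with 18. The last of these is the only one outside the sparse high-coordinate stretch. The longest stretches without a peak were 445.9 kb from 48999998 to 49445904, 358.8 kb from 3672342 to 4031182 and 344.2 kb from 49724409 to 50068598. The next were 324.5 kb from 39851018 to 40175492 and 322.1 kb from 45559455 to 45881529. Chromosome 6 thus had no peakless stretch of a megabase, and its longest was the second shortest such maximum of the 10 chromosomes, where the maximum on the others ranged from 0.408 to 4.85 Mb. Of its 29 peakless stretches over 200 kb, 23 began on the high-coordinate side of the midpoint.

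The sides of chromosome 6 were unequal. When the chromosome was split at its midpoint of 30.6 Mb, the low-coordinate side held 2006 peaks and the high-coordinate side 1035. The low-coordinate share of 66.0% (64.2 to 67.6) was the highest of the 10 chromosomes, on the others of which it ranged from 46.9% on chromosome 5 to 62.2% (60.7 to 63.7) on chromosome 1. The ratio of the side densities was 1.94 on chromosome 6, against a mean of 1.21 ± 0.219 on the others (SD, n = 9 chromosomes). The centromere was not located here, so these sides are not the chromosome arms. The dense block lies wholly on the low-coordinate side. Outside the block that side had 51.5 peaks per Mb (48.7 to 54.3), against 33.8 (31.8 to 35.9) on the high-coordinate side, a ratio of 1.52. That is below the 1.65 of chromosome 1 with all of its peaks kept, so the top rank was not shown apart from the block.

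Distance from the ends showed where the sides departed. Within 5 Mb of the low-coordinate end, chromosome 6 had 42.2 peaks per Mb, the highest of the 10 chromosomes at that end, against 29.1 ± 6.11 on the others (SD, n = 9). Within 5 Mb of the high-coordinate end it had 23.4 per Mb, against 24.5 ± 6.76 on the others, which is inside their spread. The ratio of these outermost densities, 1.80, ranked 2 of the 10, with the others between 0.788 and 2.31. Between 5 and 10 Mb from the low-coordinate end chromosome 6 had 53.2 per Mb, against 39.8 ± 11.1. At the same distance from the high-coordinate end it had 22.2 per Mb, against 27.3 ± 8.37. The ratio of the ends there, 2.40, was the highest of the 10, with the others between 0.930 and 2.25. From 10 to 15 Mb the ratio was 2.04 and from 15 to 20 Mb it was 1.35, both within the range of the others. At 20 to 25 Mb, where the dense block begins, it was 2.89, against 0.803 to 1.72 on the others. The outermost 1 Mb held 51 peaks at the low-coordinate end and 20 at the high-coordinate end.

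**Figure D2:**
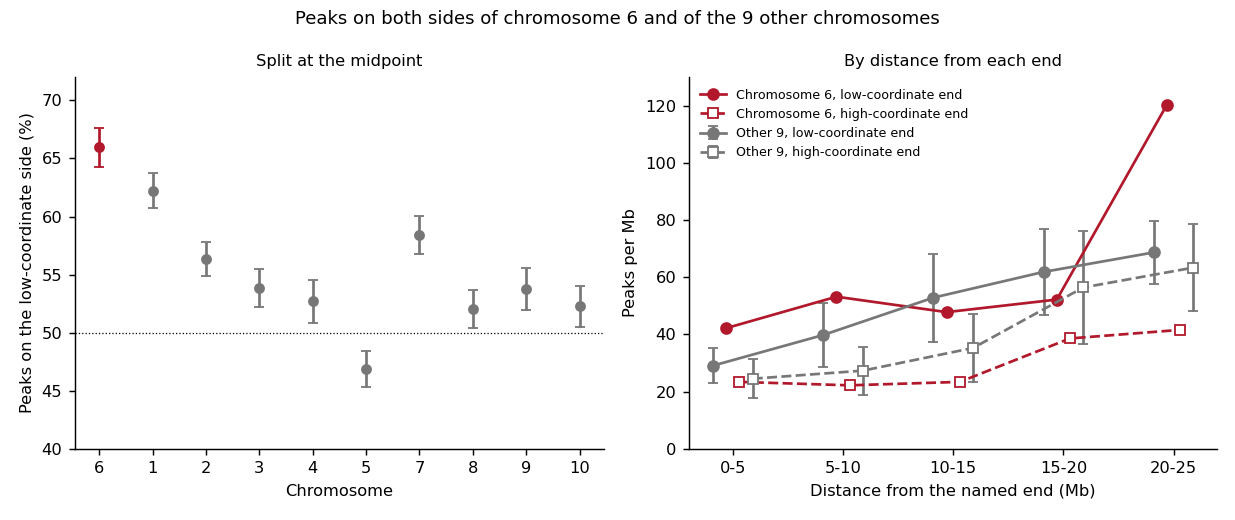
Left, share of peaks (%) on the low-coordinate side of the midpoint for chromosome 6 (red) and the 9 others (grey), with exact 95% intervals and a dotted line at 50%. Right, peaks per Mb by distance from each end for chromosome 6 (red) and for the others (grey, mean and SD of 9 chromosomes); the red curves stand at 42.2 per Mb (low-coordinate end) and 23.4 per Mb (high-coordinate end) in the outermost step and are furthest apart at 20 to 25 Mb.

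The typical peak had a similar fold on both sides. The median fold was 3.68 on the low-coordinate side (quartiles 3.24 and 4.20) and 3.72 on the high-coordinate side (3.28 and 4.26). Folds of at least 5 occurred in 138 peaks of the low-coordinate side (6.88%, 5.81 to 8.08) and in 84 of the high-coordinate side (8.12%, 6.52 to 9.95), with overlapping intervals. The median spacing of summits was 2.58 kb on the low-coordinate side and 4.69 kb on the high-coordinate side. The median background was 2.52 fragments on the low-coordinate side and 2.27 on the high-coordinate side, and 2.30 on the low-coordinate side outside the dense block.

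The dense block spans 21 to 26 Mb and was picked for its count, so the count is a description. It held 687 peaks, which is 22.6% of the members on 8.16% of the length. By 1 Mb window the counts were 180 from 21 Mb, 206 from 22 Mb, 94 from 23 Mb, 60 from 24 Mb and 147 from 25 Mb. The highest count outside the block was 76, from 9 to 10 Mb, so the window from 24 Mb was no denser than parts of the rest. Density was 137.4 per Mb (127.3 to 148.1) in the block and 41.8 (40.2 to 43.6) in the rest of the chromosome, a ratio of 3.28. Counting each 10 kb cluster as 1 peak lowered the ratio to the rest to 1.61, and asking for a −log10 q of at least 5 raised it to 7.40. The first choice thins peaks most where summits are close. At a given fold, the second passes peaks more readily where the background is high. Against the 5 Mb on each side, which held 57.9 peaks per Mb, the ratio was 2.37.

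At a finer scale the block had a pair of cores. The stretch from 21.7 to 22.7 Mb held 273 peaks, and the stretch from 24.9 to 25.3 Mb held 130, or 325.0 per Mb. The 2.2 Mb between them held 71.8 peaks per Mb, and these limits were set after the counts were seen. The fullest 100 kb window, from 22200001 to 22300000, held 51 peaks that covered 16.5% of it, and the window from 25000001 to 25100000 held 43 that covered 19.9%. Of 613 such windows on chromosome 6, 13 held 20 or more peaks (2.12%, against 2.60% of the windows on the other 9 chromosomes), and 10 of these lay in the block. The other 3, which held 20 or 21 peaks, began at 16.6, 17.3 and 28.1 Mb. The 5 largest runs of summits under 10 kb apart all lay in the block, led by 46 peaks from 22257231 to 22331039 and 41 from 25074738 to 25138297. The median spacing of summits was 1.59 kb in the block and 4.02 kb in the rest.

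**Figure D3:**
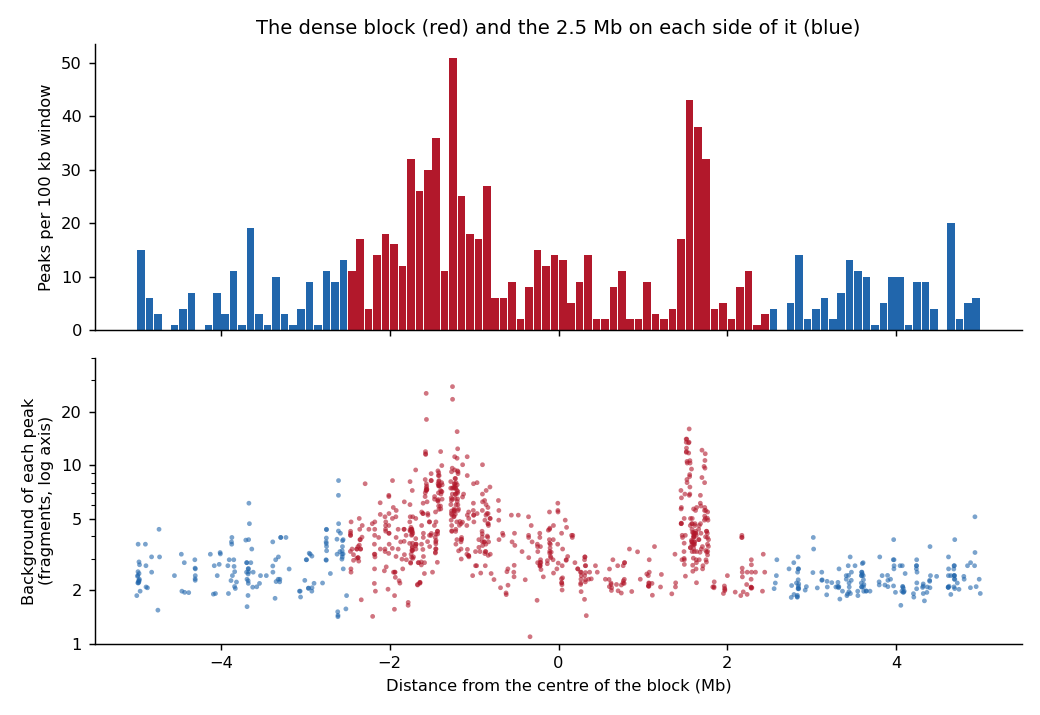
Peaks per 100 kb window (top) and background of each peak on a log axis (bottom) within 5 Mb of the centre of the dense block, with the block in red and its surroundings in blue. Counts reach 51 in the left core and 43 in the right core, and all 32 backgrounds over 10 fragments in this view lie in these cores.

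Background was higher in the block than in the rest, and higher in its cores than between them. The median background was 3.94 fragments in the block (quartiles 2.87 and 5.59) and 2.29 in the rest (2.07 and 2.63). It was 5.26 in the core from 21.7 Mb and 4.27 in the core from 24.9 Mb, against 2.74 between them. The 3 windows of 1 Mb with a median background of 3 or more all lay in the block, while the 56 complete windows outside it ranged from 2.08 to 2.97. Backgrounds of at least 5 occurred at 218 block peaks (31.7%, 28.3 to 35.4) and at 13 of the rest (0.552%, 0.294 to 0.943). The difference of 1.65 fragments between the block and rest medians became 2.81 when the −log10 q had to be at least 5, 0.767 when each 10 kb cluster counted as 1 peak and 1.00 when only backgrounds under 5 were kept. Each of these choices bears on the background itself. At a given fold, the first passes peaks more readily where the background is high. The second keeps the largest fold of each cluster, which at a given pileup is the lowest background. The third drops 218 block peaks and 13 of the rest by their background. Against the 5 Mb on each side, a comparison that filters no peaks, the difference was 1.64 (1.42 to 1.75). What part the background has in the density of called peaks was not tested.

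IP fragments were more numerous in the block as well, and in the list as deposited the median fold was slightly lower than in the rest. The median pileup was 17 fragments in the block and 11 in the rest. The median fold was 3.60 in the block (quartiles 3.14 and 4.10) and 3.72 in the rest (3.29 and 4.24), a difference of −0.117 (−0.192 to −0.0377, from the exact order-statistic interval of the block median). Against the 5 Mb on each side it was −0.0897 (−0.165 to −0.0105). With a −log10 q of at least 5 the difference was −0.701 (−0.831 to −0.568). At a given fold, however, this filter passes peaks more readily where the background is high, as in the block. The difference was −0.0765 (−0.138 to 0.0256) for folds at or above the list's median and −0.0406 (−0.128 to 0.0406) for backgrounds under 5. Both of these intervals include 0. When each 10 kb cluster was represented by its peak of largest fold the difference was 0.322 (−0.0115 to 0.458), an interval that includes 0, and this choice by itself lifts the fold most where clusters are large. Folds of at least 5 occurred in 47 block peaks (6.84%, 5.07 to 8.99) and in 175 of the rest (7.43%, 6.41 to 8.57). None of the block peaks reached a fold of 8, which allows a share of up to 0.437%, and the highest was 6.502. The share over all chromosome peaks, 0.129%, lies within that limit, so no difference is read from it. Values of −log10 q of at least 5 occurred in 240 block peaks (34.9%, 31.4 to 38.6) and in 365 of the rest (15.5%, 14.1 to 17.0), and at a given fold this value rises with the background. Block peaks had a median width of 242 bp, against 212 bp in the rest.

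At equal background the median fold of the block was not lower throughout. Under 2 fragments of background it was 3.72 for 27 block peaks and 3.78 for 463 of the rest. Between 2 and 2.5 fragments of background, the median fold was 3.88 for 78 block peaks and 3.81 for 1130 of the rest. Between 2.5 and 3 fragments it was 3.61 for 87 block peaks and 3.64 for 498 of the rest. Between 3 and 4 fragments it was 3.73 for 164 block peaks and 3.20 for 218 of the rest, and between 4 and 5 fragments it was 3.53 for 113 block peaks and 3.35 for 32 of the rest. The block median was thus higher in both ranges from 3 to 5 fragments, although lower over all backgrounds. These medians are given without intervals. From 5 to 10 fragments the rest held only 7 peaks, against 186 in the block, and from 10 fragments up only 6, against 32. No comparison was made in either range.

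Each chromosome has a densest stretch, and the block was compared with those of the other 9, taken as the 5 consecutive 1 Mb windows with the most peaks. The block held 137.4 peaks per Mb, below the 140.8 of the stretch from 43 to 48 Mb on chromosome 5 and above the 79.8 to 114.6 of the other 8. Relative to the rest of its own chromosome it was 3.28 times as dense, the highest of the 10, against 2.71 on chromosome 5 and 1.64 as the lowest. It held 22.6% of the peaks of its chromosome, against 12.5% to 16.8% on the others. The chromosome 5 stretch was also the nearest in background, with a median of 4.27 fragments against 3.94 in the block, and in the share of peaks with a background of 5 or more, 39.1% against 31.7% in the block. In 5 of the other 9 stretches that share was under 1%, among them 0 of 459 peaks on chromosome 8, which allows up to 0.654%. Outside the block, 41.8 peaks per Mb on chromosome 6 was in the lower part of the range of 38.6 to 55.9 of the others outside their own densest stretches.

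The 5 highest folds lay outside the dense block, which held 22.6% of the members. The 5 members with a fold of 8 or more (0.164%, 0.0534 to 0.383, against 0.129% of all chromosome peaks) were all between 50 and 57 Mb, limits set after their positions were seen, where 149 members lay. Before 47 Mb, an edge chosen after the counts were seen, none of 2737 members reached 8, which allows a share of up to 0.110% by the 3-count rule. The exact limit is higher, so no difference from 0.129% is read from it. At 52976532 to 52976970, 33 IP fragments stood over 2.10 expected ones, the top fold of 10.98 (7.66 to 15.3). At 53506151 to 53506374, 42 fragments over 3.07 gave 10.57 (7.69 to 14.2), and at 56444272 to 56444474, 48 fragments over 4.16 gave 9.49 (7.05 to 12.5). The intervals of these 3 overlap, so their order is not settled. The other two were at 50433302 to 50433734, with 32 fragments over 2.52 and a fold of 9.38 (6.504 to 13.1), and at 51240170 to 51240476, with 34 over 2.96 and 8.84 (6.20 to 12.3). These 5 were 203 to 439 bp wide, and no lower limit reached 8. Over all chromosome peaks the leading one ranked 24 by fold.

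The next folds of chromosome 6 were lower and more scattered. They were 7.54 (4.85 to 11.2) at 30310315 to 30310984, 7.05 (4.48 to 10.6) at 39219168 to 39219416 and 6.82 (4.39 to 10.2) at 57956229 to 57956408. The peaks at 11074531 to 11075279 and at 18391117 to 18391713 had folds of 6.58 and 6.56, on 20 and 15 fragments. Of the 10 highest folds, 7 lay on the high-coordinate side, which held 1035 of the 3041 members. None lay in the block, which held 687, and no difference is read from so few peaks. From 47 Mb on, 26 of the 304 peaks had a fold of at least 5 (8.55%, 5.66 to 12.3), close to the 8.47% of all chromosome peaks.

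The 2 members with the largest −log10 q lay 2263 bp apart by their summits near the low-coordinate end, where the list held the highest backgrounds of any chromosome. At 697474 to 697899, 25116 IP fragments stood over 5443 expected ones, a fold of 4.61 (4.56 to 4.67). At 699820 to 700090, 15114 stood over 3123, a fold of 4.84 (4.76 to 4.92). Both folds lie between the upper quartile of chromosome 6, 4.22, and the threshold of 5. Together the pair held 48.8% of the summed pileup of all 3041 members, while 6 other peaks within 50 kb of the first had pileups of 9 to 16, backgrounds of 1.96 to 3.18 and folds of 3.38 to 4.42. The stretch of 1920 bp between the pair held no peak. The largest background of any other member was 106.1, and the largest on the other 9 chromosomes was 1000.03. Whether either peak lies in SbGhd7, whose gene maps to this end of the chromosome and which the cells were made to express, was not tested.

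**Figure D4:**
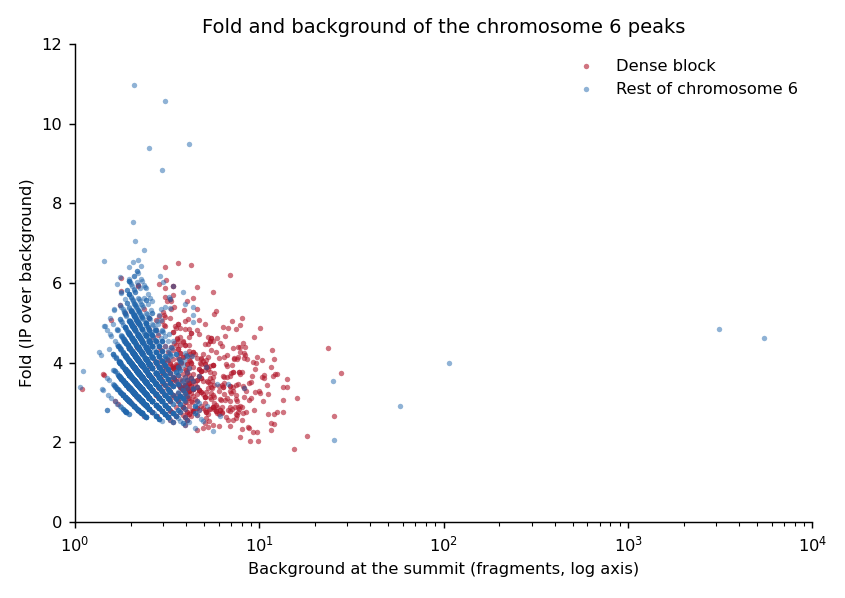
Fold of each chromosome 6 peak against its background on a log axis, with the dense block in red and the rest in blue. Block peaks extend to backgrounds of 27.6 fragments at folds like those of the rest, the 5 folds over 8 lie at backgrounds of 2.10 to 4.16, and the pair near the low-coordinate end stands at 3123 and 5443.

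The remaining members high by −log10 q were of both kinds. The peak at 5000531 to 5000773 had a −log10 q of 116.3 from a pileup of 428 over 106.1, and the peak at 58636551 to 58636747 one of 29.7 from 170 over 57.6, with folds of 4.005 and 2.92. In the left core of the block, the neighbouring peaks at 22243218 to 22243798 and 22244112 to 22244506 had pileups of 106 each over 27.6 and 23.4. The other 4 among the 10 largest belonged to the 5 with a fold of 8 or more, with −log10 q from 21.6 to 31.0. In all, 9 members had a background of 20 or more.

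The widest member, 3252 bp at 25017923 to 25021174, lay in the right core of the block, with a fold of 3.40 over a background of 14.0. A second wide peak of the same core, 1430 bp at 25024218 to 25025647, had a fold of 3.63 over 10.3, and the peak of 1608 bp at 21895018 to 21896625 in the left core had one of 4.49 over 6.13. Outside the block the peaks of 1810 bp at 1707460 to 1709269 and of 1574 bp at 42520067 to 42521640 had folds of 4.41 and 4.39 over backgrounds of 2.63 and 2.19. Of the 32 members of 900 bp or more, 14 lay in the block (2.04% of its peaks, 1.12 to 3.40) and 18 in the rest (0.765%, 0.454 to 1.21). The first peak of the chromosome, at 49242 to 49481, had a fold of 3.14, and the last, at 61267056 to 61267248, one of 4.001.

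By their nearest neighbours, peaks of chromosome 6 were among the least bunched of the 10 chromosomes despite the cores of the block. The median distance between neighbouring summits was 3.06 kb, against 2.25 to 3.04 kb on the other 9. A neighbour within 2 kb was found for 58.2% of members, against 59.3% to 65.3%. The summits fell into 1008 clusters at a gap of 10 kb, and 497 of these held 1 peak, which is 16.3% of members against 11.2% to 14.8% of the peaks on the others. Another 50 clusters held 10 or more peaks and together 24.1% of the members, and 19 of the 50 began in the block. No peak was found in 90 of the 613 windows of 100 kb (14.7%), against 16.9% of windows on the others, and 66 of the 90 lay on the high-coordinate side.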

How the data were processed

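A narrowPeak table of 10 columns, with no header and nothing measured per sample, was deposited by the authors. The submitters' processing notes list BWA (0.7.17.2) and MACS2 (2.2.7.1); settings, genome build and whether replicates were merged are not stated there. Every peak name carries 1 alignment name with a mark for duplicate marking. In it, the authors' fold ratio is column 7, columns 8 and 9 of the deposited table hold the −log10 p-value and −log10 q-value, and the deposited score in column 5 is 10 times column 8, truncated, in 3040 of the 3041 members; start, end and summit offset are positions in other columns the authors deposited.

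In MACS2 the fold is the ratio of pileup and background, each raised by 1, and p is a Poisson tail. Solving both gave exactly 1 whole-number pileup for each of 40087 peaks, within a relative tolerance of 2e-05; the solver was tested on simulated data. The control is taken to be the input, which the list does not state. The added 1 lowers folds more where background is low.

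Peaks were placed by summit into windows of 1 Mb and 100 kb. Chromosome length is the end of the last peak, a lower bound. The peaks named were the 10 largest by fold, the 10 by −log10 q, the 5 widest, the first and the last, with the 5 densest and sparsest windows and 5 longest peakless stretches. The members, the block and these choices were made with earlier results of these data known. Tools were matplotlib 3.10.9, scipy 1.17.1, pandas 2.3.3, numpy 2.4.6 and Python 3.11.15.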

Additional observations from a re-analysis of the deposited data

How the results depend on the processing

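No paired analysis was possible because every value describes a peak rather than a sample, which also keeps any replicate from being left out. The alternatives were a −log10 q of 5 or more (605 members), a fold at or above the list's median (1500), 1 peak per 10 kb cluster (1008) and a background under 5 (2810). In that order, the density of chromosome 6 over the other 9, 0.9499 as deposited, was 1.04, 0.904, 1.06 and 0.909, on the other side of 1 in the first (0.953 to 1.13) and the third (0.989 to 1.13), though both intervals include 1. The low- over high-coordinate ratio, 1.94 as deposited, was 2.83, 1.84, 1.38 and 1.73; it was 2.17, 1.91, 2.22 and 2.11 for the outer 40%, 30%, 20% and 10%, and 1.65 without the block and its mirror stretch. The block over the rest, 3.28 as deposited, was 7.40, 2.91, 1.61 and 2.25, and it was 2.80 for 20 to 27 Mb, 2.61 for 22 to 25 Mb and 2.37 against the flanks. The background difference of the block, 1.65 fragments as deposited, was 2.81, 1.42, 0.767 and 1.00. Each of these alternatives selects on the background, directly or through the fold or the q-value. Against the flanks, a comparison that filters no peaks, the background difference was 1.64 (1.42 to 1.75). The fold difference of the block was −0.117 (−0.192 to −0.0377) as deposited. It was −0.701 (−0.831 to −0.568), −0.0765 (−0.138 to 0.0256), 0.322 (−0.0115 to 0.458) and −0.0406 (−0.128 to 0.0406) in the alternatives. Against the flanks, with no peaks filtered, it was −0.0897 (−0.165 to −0.0105). The intervals as deposited, in the first alternative and against the flanks exclude 0, and the others include it. At a given fold, the first alternative passes peaks more readily where the background is high. The third keeps the largest fold of each cluster, which lifts the fold most where clusters are large. The share of members with a fold of 5 or more over that on the others, 0.851 as deposited, stayed below 1 in 6 of 7 alternatives. Among these 6 were 0.894 (0.788 to 1.01) at a fold at or above the list's median and 0.886 (0.776 to 1.01) at a background under 5. A threshold of 6 gave 0.810 (0.565 to 1.12), and these intervals include 1. The intervals of the others among the 6 lay below 1. At a threshold of 8 the ratio was 1.30 (0.423 to 3.04), on 5 members. Part of the shifts of the block is built into the filters. A −log10 q of 5 or more passed 34.9% of block peaks and 15.5% of the rest. A background under 5 removed 31.7% and 0.552% of them. Counting clusters thins peaks most where summits are close, with a median spacing of 1.59 kb in the block and 4.02 kb in the rest. What else lies behind the shifts was not tested. Of the members, 91.4% rest on 20 or fewer fragments, which limits the precision of single folds.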
